A study of Homo sapiens with 12 samples.

Results

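The genes of cholesterol synthesis and of its control by SREBP factors were followed in HepG2 cells after CPSF6 silencing. They are 31 named genes, from acetoacetyl-CoA thiolase to the sterol exporter ABCA1, with the rule that their mean normalized count over all 12 libraries be at least 20. INSIG1 was not analysed here. The other 30 passed, of 12939 genes that passed among 22148. Cholesterol is built from acetyl-CoA through mevalonate, farnesyl diphosphate, squalene and lanosterol. The transcription factors encoded by SREBF1 and SREBF2 activate most genes of this route when sterols in the endoplasmic reticulum are low: the escort protein SCAP carries them to the Golgi, where they are cut and released, and the INSIG proteins hold SCAP back when sterols are high. In liver cells these genes set how much cholesterol is made, stored as ester, taken up and exported.

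HepG2 is a human hepatoblastoma-derived line that keeps many hepatocyte functions. Cells received siRNA against CPSF6 (siCPSF6) or control siRNA (siNC) for 48 h, then 5 µg/ml actinomycin D, which stops transcription, for 0, 3 or 6 h. Each of the 6 groups had 2 biological replicates. CPSF6 is a subunit of cleavage factor Im, which helps to choose the 3′ end of mRNAs. The siRNAs lower CPSF6 but do not delete it, and the work rests on 1 cell line. The design asks how CPSF6 silencing changes mRNA levels and their loss after the transcription block.

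The CPSF6 normalized count at 0 h was 768 and 718 in the siCPSF6 libraries, against 2147 and 2082 in the siNC libraries. Estimated depth was 21800000 to 30300000 reads per library. The 7 hepatocyte markers summed to 22255 to 33002 TPM in siCPSF6 and 21887 to 32650 TPM in siNC libraries. The 3 of 4 endothelial markers with a row summed to 0.271 to 0.641 TPM in siCPSF6 and 0.234 to 1.15 TPM in siNC. The 3 of 5 stromal markers with a row summed to 21.0 to 23.8 TPM in siCPSF6 and 26.8 to 38.8 TPM in siNC, and the 3 of 5 immune markers with a row summed to 271 to 532 TPM in siCPSF6 and 392 to 996 TPM in siNC. No marker with a row was at 0 in every library, and their part in the results below was not tested.

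At 0 h the pathway mRNAs spanned a wide range of levels per length (TPM, a length-corrected share of a library). FDFT1, squalene synthase, was the most abundant at 396.4 ± 0.4 TPM in siCPSF6 and 272.8 ± 4.7 TPM in siNC (SD, n = 2 each). In siNC, ACAT2, the thiolase that makes acetoacetyl-CoA, was next at 272.4 ± 12.1 TPM, which did not differ from FDFT1 beyond the spread, and then FDPS, farnesyl diphosphate synthase, at 237.9 ± 3.7 TPM. The lowest members in siCPSF6 were PMVK, phosphomevalonate kinase, at 8.9 ± 0.3 TPM and the sterol esterifying enzyme SOAT2 at 9.9 ± 1.3 TPM. In siNC they stood at 13.9 ± 0.4 and 13.1 ± 0.5 TPM, beside ABCA1 at 12.7 ± 0.1 TPM (SD, n = 2 each). On hg38 (GENCODE release 29), 18 members overlap another annotated gene on either strand, 7 of them on their own strand. Whether reads were counted by strand is not given in the sources used here, so counts of overlapping genes are uncertain. FDPS, CYP51A1 and HSD17B7 also have annotated pseudogenes that may share reads.

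**Figure D1:**
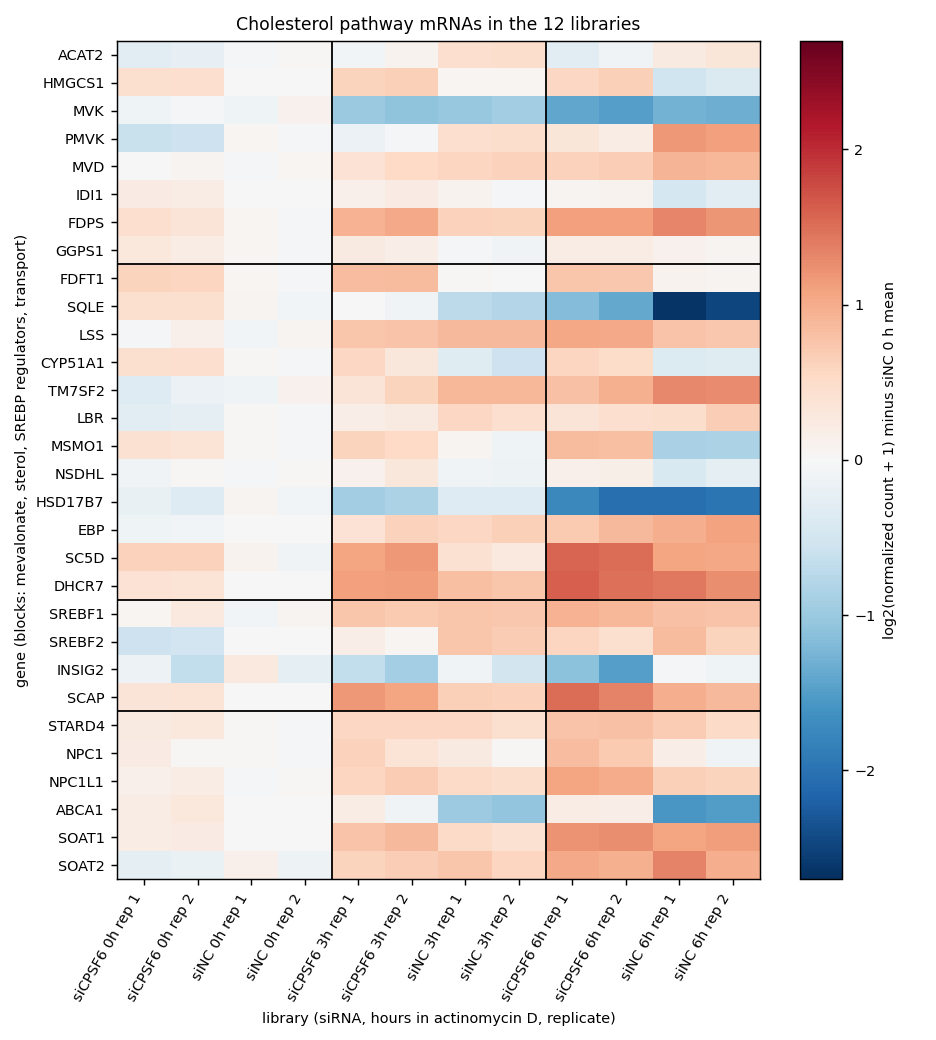
Each cell is 1 library of 1 gene, coloured by log2(normalized count + 1) minus the mean of the siNC libraries at 0 h; rows are grouped by role and columns by hours in actinomycin D, with siCPSF6 left of siNC. SQLE and HSD17B7 are the darkest blue rows in siNC at 6 h, and MSMO1 and ABCA1 are red in siCPSF6 and blue in siNC at 6 h.

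The 3 promoters below are shown because they hold a match to TCACNCCA, a sterol response element-like core, within 250 bases before to 50 bases after the RefSeq start site. Lower case is plain sequence, and capitals mark matches to TCACNCCA and to CCAAT on either strand (CCAAT on the opposite strand reads ATTGG). All run 5′ to 3′ on the plus strand of GRCh38.p14.
MSMO1, chr4:165327419-165327718: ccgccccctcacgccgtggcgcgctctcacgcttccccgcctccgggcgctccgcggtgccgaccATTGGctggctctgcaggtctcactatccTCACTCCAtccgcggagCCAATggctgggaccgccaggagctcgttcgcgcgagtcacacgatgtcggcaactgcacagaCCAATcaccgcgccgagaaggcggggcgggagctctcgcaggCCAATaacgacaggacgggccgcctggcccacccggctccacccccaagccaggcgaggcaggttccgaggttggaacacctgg
SREBF2, chr22:41832855-41833154: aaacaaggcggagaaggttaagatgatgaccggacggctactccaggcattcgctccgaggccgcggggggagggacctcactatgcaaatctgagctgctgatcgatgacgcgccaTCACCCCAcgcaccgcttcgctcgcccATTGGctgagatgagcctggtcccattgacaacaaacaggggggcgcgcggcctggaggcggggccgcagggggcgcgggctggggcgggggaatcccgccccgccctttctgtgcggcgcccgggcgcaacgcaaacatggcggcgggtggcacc
MVK, chr12:109573544-109573843: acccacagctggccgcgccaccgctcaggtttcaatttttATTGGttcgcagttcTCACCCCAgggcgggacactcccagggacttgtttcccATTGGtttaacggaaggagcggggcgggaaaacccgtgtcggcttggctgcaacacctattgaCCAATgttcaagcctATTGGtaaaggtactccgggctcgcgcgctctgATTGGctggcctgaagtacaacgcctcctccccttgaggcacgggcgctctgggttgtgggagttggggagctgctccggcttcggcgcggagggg
Relative to the start site, the TCACNCCA match begins at position -156 in MSMO1, -133 in SREBF2 and -195 in MVK. Promoter sequences were held for 26 member genes (34 promoters); 3 of these promoters had such a match, against 3.95% of all 35116 promoters of the same length. CCAAT was in 20 of the 34 promoters (34.6% of all) and the GC box GGGCGG in 29 of 34 (45.0% of all). At 0 h MSMO1 was higher in siCPSF6, SREBF2 was lower, and the MVK difference did not pass.

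At 0 h, while transcription was running, 14 of the 30 members were higher in siCPSF6 than in siNC, 5 were lower and 11 did not pass. Each difference is siCPSF6 minus siNC of the mean log2(normalized count + 1), a scale on which the change of a low count comes out too small. A difference passed at an adjusted p (limma, Benjamini-Hochberg over all 12939 genes) under 0.05. Over all genes 21.8% were higher and 21.1% lower, with a median difference of 0.002, against 0.16 over the members. The p-values reflect the spread between 2 biological replicates per group, pooled over all 6 groups and adjusted by limma with the spread of other genes. Libraries at 3 h and 6 h therefore also enter the p-values at 0 h.

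In the mevalonate arm 4 of 8 members rose and 2 fell in siCPSF6. HMGCS1 (ENSG00000112972.15; chromosome 5, 43289395 to 43313512), which makes HMG-CoA, had normalized counts of 8223 and 8376 in siCPSF6, against 6090 and 6094 in siNC. Both siCPSF6 libraries lay above both siNC libraries, a log2 difference of 0.45 (SE 0.06, adjusted p = 6.3e-05). FDPS, with 5230 and 4835 in siCPSF6 and 3963 and 3675 in siNC, rose by 0.40. The isoprenoid enzymes IDI1, which isomerizes isopentenyl diphosphate, and GGPS1, which makes geranylgeranyl diphosphate, rose by 0.21 and 0.24. PMVK (ENSG00000163344.6; chromosome 1, 154924734 to 154936991) went the other way, with 119 and 121 counts in siCPSF6 and 186 and 174 in siNC (log2 -0.58, SE 0.13, adjusted p = 0.0017). ACAT2, with 4951 and 5253 in siCPSF6 and 6026 and 6227 in siNC, also fell, by 0.26 (SE 0.08, adjusted p = 0.011). The groups of these 2 genes did not overlap. The ACAT2 call was lost without replicate 1 of siCPSF6 (-0.22) or replicate 2 of siNC (-0.24) at 0 h. MVK, mevalonate kinase, had 1118 and 1157 counts in siCPSF6 and 1112 and 1310 in siNC, which overlapped, and neither it (-0.09) nor the decarboxylase MVD (0.04) passed.

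From squalene to cholesterol 6 of 12 members rose and 2 fell. SC5D (ENSG00000109929.10; chromosome 11, 121292453 to 121308694), a sterol desaturase, had 3172 and 3215 counts in siCPSF6 and 2201 and 1957 in siNC. Its difference of 0.62 (SE 0.07, adjusted p = 1.1e-05) was the largest rise of the pathway at 0 h. FDFT1 (ENSG00000079459.13; chromosome 8, 11795573 to 11839309) had 13190 and 12845 counts in siCPSF6 and 8919 and 8388 in siNC, a log2 difference of 0.59 (SE 0.06, adjusted p = 2.2e-06). CYP51A1 (ENSG00000001630.17; chromosome 7, 92112151 to 92134803), the lanosterol demethylase, had 3549 and 3593 in siCPSF6 and 2687 and 2557 in siNC (0.45, SE 0.09, adjusted p = 0.00079). In each of these genes both siCPSF6 libraries were above both siNC libraries. SQLE, squalene epoxidase, rose by 0.43, MSMO1, a methylsterol oxidase, by 0.39, and the sterol reductase DHCR7 by 0.38. The sterol reductases LBR, which is also a lamin receptor, and TM7SF2 fell by 0.27 and 0.26 (SE 0.07 and 0.10, adjusted p = 0.0078 and 0.049). LBR had 2800 and 2829 counts in siCPSF6 and 3471 and 3330 in siNC. TM7SF2 had 1018 and 1162 in siCPSF6 and 1200 and 1417 in siNC, which did not overlap either. The LBR call was lost without replicate 1 of siNC at 0 h (-0.24). That of TM7SF2 was lost without replicate 1 of siCPSF6 or replicate 2 of siNC at 0 h, and without either siNC library at 3 h or 6 h (-0.26 to -0.14). LSS (lanosterol synthase, 0.05), NSDHL (a sterol dehydrogenase, -0.04), EBP (a sterol isomerase, -0.09) and HSD17B7 (a sterol ketone reductase, -0.28) did not pass. HSD17B7 passed with the replicate number as a block (adjusted p = 0.038).

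Among the regulators SREBF2 fell, SCAP rose and SREBF1 did not pass. SREBF2 (ENSG00000198911.12; chromosome 22, 41833079 to 41907308), whose product mainly drives cholesterol genes, had 3640 and 3745 counts in siCPSF6 and 5282 and 5399 in siNC. The siCPSF6 libraries lay below the siNC libraries, a log2 difference of -0.53 (SE 0.08, adjusted p = 0.00012). SREBF1 (ENSG00000072310.17; chromosome 17, 17810399 to 17837002), whose product mainly drives fatty acid genes, had 2536 and 2908 in siCPSF6 and 2314 and 2570 in siNC. These overlapped, and the difference was 0.16 (SE 0.07, adjusted p = 0.11). SCAP rose by 0.35. INSIG2 had 788 and 551 counts in siCPSF6 and 1038 and 728 in siNC. Its groups overlapped and its difference of -0.40 (SE 0.23, adjusted p = 0.19) did not pass, although it did with the replicate number as a block (adjusted p = 0.0019).

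Of the 6 transport, storage and efflux genes 3 rose and none fell at 0 h. STARD4, which moves sterol through the cytosol, rose by 0.27 and the esterifying enzyme SOAT1 by 0.21. ABCA1, which exports cholesterol from the cell, had 2756 and 2912 counts in siCPSF6 and 2424 and 2370 in siNC. Its groups did not overlap, and it rose by 0.24 (SE 0.09, adjusted p = 0.036). NPC1, which exports cholesterol from lysosomes, had a difference of 0.13, NPC1L1, an uptake transporter, of 0.17 and SOAT2 of -0.21, and none of these passed. NPC1L1 passed with the replicate number as a block (adjusted p = 0.033). The 0 h calls of ABCA1, SOAT1, IDI1 and GGPS1 were lost when any 1 of the 4 libraries at 0 h was left out, with differences of 0.18 to 0.29. That of STARD4 was lost without replicate 2 of siCPSF6 (0.25) or of siNC (0.24) at 0 h. Values were also scaled to the summed ERCC spike-in RNA, which sets them per mass of total RNA and not per cell. The median of all genes then moved to -0.13, and of the members only FDFT1 (0.46, adjusted p = 0.011) and SC5D (0.49, adjusted p = 0.012) passed as higher. On that scale PMVK, SREBF2, ACAT2, LBR and INSIG2 fell, and 8.93% of all genes were higher and 19.7% lower. SEs were larger there, for HMGCS1 0.15 against 0.06 as deposited. Its spike-in difference of 0.31 did not pass (adjusted p = 0.11), with scaled counts of 10877 and 11671 in siCPSF6 and 9202 and 8953 in siNC. That SE pools all 6 groups, among them siCPSF6 at 3 h, where ERCC shares were 1.43% and 1.13%. In these bulk libraries a change in RNA per cell cannot be told apart from a change in the share of cells that hold it.

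**Figure D2:**
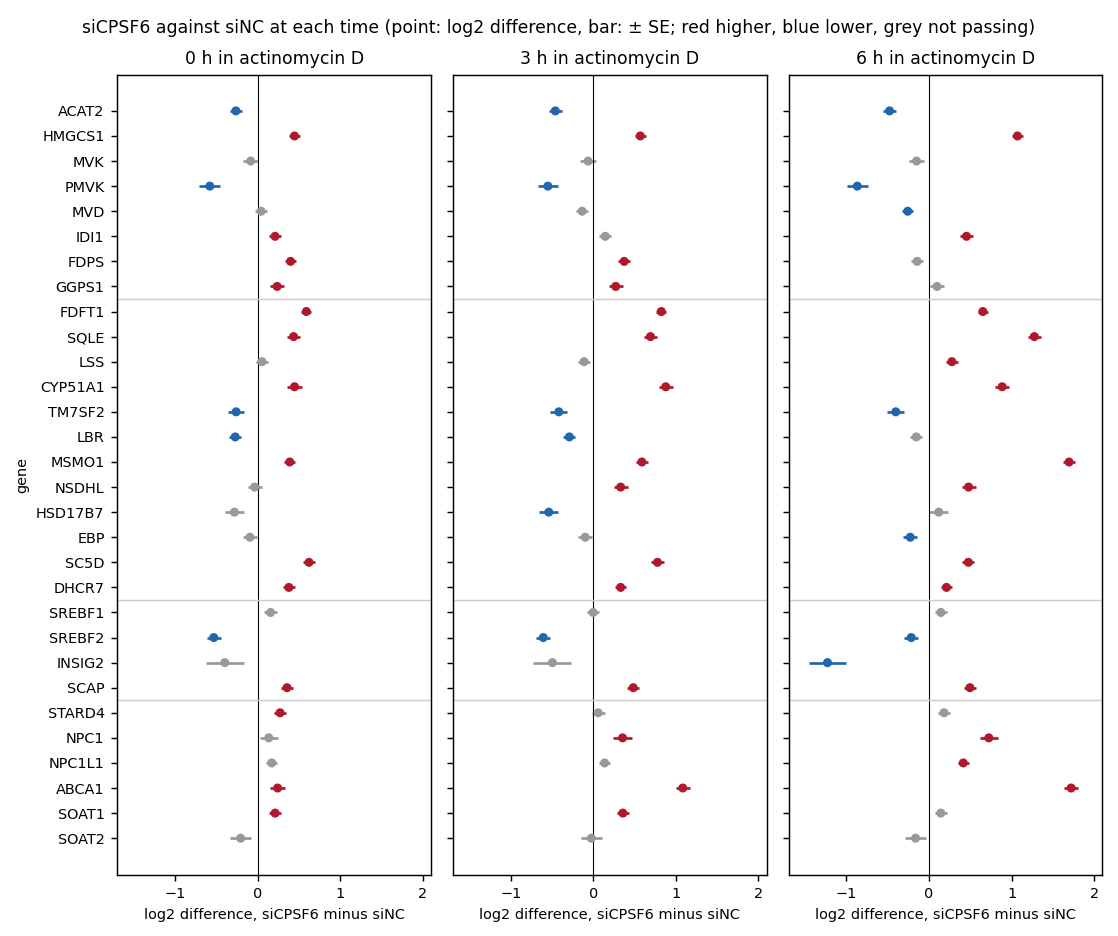
Log2 difference, siCPSF6 minus siNC, for each of the 30 members (rows, grouped by role) after 0, 3 and 6 h in actinomycin D; points are limma estimates, bars are 1 SE, and colour shows whether the difference passed. ABCA1 stands at 0.24, 1.08 and 1.72 over the 3 times and MSMO1 at 0.39, 0.59 and 1.70.

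The same comparison was made after the transcription block. At 3 h 14 members were higher in siCPSF6 and 6 lower (26.2% and 29.1% of all genes), and at 6 h 14 were higher and 7 lower (27.0% and 28.6% of all genes). The member medians were 0.14 and 0.16, against -0.03 and -0.02 over all genes. On the spike-in scale 11 were higher and 5 lower at 3 h (20.6% and 18.4% of all genes), and 12 were higher and 4 lower at 6 h (19.4% and 21.6%). These times each have their own libraries. As deposited, 9 members were higher at all 3 times (12.4% of all genes): HMGCS1, FDFT1, SQLE, CYP51A1, MSMO1, SC5D, DHCR7, SCAP and ABCA1. ACAT2, PMVK, TM7SF2 and SREBF2 were lower at all 3 (13.9% of all genes), and MVK, SREBF1 and SOAT2 passed at none. With spike-in scaling 2 members, FDFT1 and SC5D, were higher at all 3 times (5.66% of all genes), and 3, ACAT2, PMVK and INSIG2, were lower (10.4%). The 3 h call of TM7SF2 (-0.42) was lost without replicate 1 of siCPSF6 at 3 h (-0.29) and on the spike-in scale (adjusted p = 0.057). That of GGPS1 at 3 h (0.27) was lost without replicate 1 of siCPSF6 or replicate 2 of siNC at 3 h (0.24 in each case). On the spike-in scale the 3 h calls of GGPS1, LBR, SOAT1 and NSDHL did not pass either (adjusted p = 0.16, 0.17, 0.052 and 0.087). No member was higher at 1 time and lower at another.

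The steps from farnesyl diphosphate to lanosterol show the range of time courses. FDFT1 had 13190 and 12845 counts at 0 h, 15485 and 15624 at 3 h and 14543 and 14324 at 6 h in siCPSF6. In siNC it had 8919 and 8388 at 0 h, 8813 and 8774 at 3 h and 9209 and 9162 at 6 h. Every siCPSF6 library lay above every siNC library, and the difference was 0.82 at 3 h and 0.65 at 6 h. SQLE had 7072 and 7019, then 5178 and 4876, then 2300 and 2003 counts at 0, 3 and 6 h in siCPSF6. In siNC it had 5455 and 4981, then 3213 and 3013, then 835 and 940. SQLE thus lost counts in both arms and was higher in siCPSF6 by 1.28 at 6 h (SE 0.08, adjusted p = 1.2e-08).

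Among later sterol genes, MSMO1 (ENSG00000052802.13; chromosome 4, 165327623 to 165343160) had 5314 and 5179 counts at 0 h, 6040 and 5842 at 3 h and 7295 and 7065 at 6 h in siCPSF6. In siNC it had 4091 and 3927 at 0 h, 4211 and 3710 at 3 h and 2196 and 2232 at 6 h. The 6 h difference was 1.70 (SE 0.07, adjusted p = 1.3e-10). CYP51A1 differed by 0.88 at 3 h and 0.89 at 6 h, with 3940 and 3685 counts in siCPSF6 and 2023 and 2101 in siNC at 6 h. NSDHL, which acts on the product of MSMO1, did not pass at 0 h and was higher in siCPSF6 at 3 h (0.33) and 6 h (0.48). The 3 h call was lost without replicate 2 of siCPSF6 at 3 h (0.23) and on the spike-in scale (adjusted p = 0.087). HSD17B7, the ketone reductase that completes the demethylation MSMO1 begins, was lower at 3 h (-0.54) and its 6 h difference of 0.12 did not pass. LSS was higher at 6 h (0.28), while EBP was lower (-0.23). The 6 h calls of DHCR7 (0.21) and EBP were lost without replicate 1 of siCPSF6 (0.15 and -0.14) or replicate 2 of siNC (0.13 and -0.17) at 6 h. Without limma's trend and robust settings DHCR7 and EBP did not pass at 6 h (adjusted p = 0.052 and 0.075). With only the 6 h groups fitted they did not pass either (adjusted p = 0.075 and 0.065). EBP also failed with median-ratio scaling (adjusted p = 0.067) and TPM (adjusted p = 0.13). On the spike-in scale the 6 h calls of DHCR7, LSS, EBP, MVD and SREBF2 did not pass.

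The mevalonate enzymes parted at 6 h. HMGCS1 had 9205 and 9472 counts at 3 h and 8972 and 9551 at 6 h in siCPSF6. In siNC it had 6294 and 6299 at 3 h and 4205 and 4616 at 6 h, so that the difference at 6 h was 1.07 (SE 0.06, adjusted p = 5.8e-09). FDPS had 8177 and 8258 counts in siCPSF6 and 9523 and 8656 in siNC at 6 h, a difference of -0.14 that did not pass (adjusted p = 0.094; 0.039 with the replicate number as a block). PMVK was lower in siCPSF6 at 6 h (log2 -0.87), with 225 and 208 counts in siCPSF6 and 406 and 386 in siNC. ACAT2 was -0.48, with 5005 and 5723 in siCPSF6 and 7221 and 7694 in siNC. MVD was lower at 6 h (-0.26) and IDI1 higher (0.45).

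SREBF2 had 6070 and 5516 counts at 3 h and 8003 and 7204 at 6 h in siCPSF6, against 9026 and 8604 at 3 h and 9610 and 8092 at 6 h in siNC. The difference was -0.61 at 3 h and -0.22 at 6 h (adjusted p = 0.037), where every siCPSF6 value was still below every siNC value. The 6 h call was lost without replicate 2 of siCPSF6 or replicate 1 of siNC at 6 h (-0.14 to -0.09). It was also lost with no filter on the mean, median-ratio scaling (adjusted p = 0.063) and TPM (adjusted p = 0.17). Without limma's trend and robust settings, or with only the 6 h groups fitted, it did not pass either (adjusted p = 0.1 in each). SREBF1 had 4703 and 4521 counts in siCPSF6 and 4220 and 4129 in siNC at 6 h, and its difference of 0.14 did not pass. INSIG2 had 400 and 308 counts in siCPSF6 and 853 and 797 in siNC at 6 h, a difference of -1.23 (SE 0.23, adjusted p = 0.0014), and SCAP rose by 0.50. ABCA1 (ENSG00000165029.17; chromosome 9, 104781002 to 104928237) had 2762 and 2250 counts at 3 h and 2737 and 2706 at 6 h in siCPSF6. In siNC it had 1216 and 1138 at 3 h and 807 and 843 at 6 h. Its difference was 1.08 at 3 h (adjusted p = 1.3e-07) and 1.72 at 6 h (SE 0.09, adjusted p = 1.1e-09). NPC1 was higher by 0.35 at 3 h and 0.72 at 6 h, and NPC1L1 by 0.42 at 6 h. The 3 h call of NPC1 was lost without replicate 1 of siCPSF6 or replicate 2 of siNC at 3 h (0.22 to 0.25).

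How much of each mRNA was left after the block was read on the spike-in scale, as the percent of the arm's own mean at 0 h. That scale is per mass of total RNA. A percent can therefore lie above the 0 h level, and it is not the share of molecules that survived. Deposited counts were scaled to an equal upper quartile, which cannot show a loss shared by most mRNAs: on that scale the median change of all genes at 6 h against 0 h was 0.35 in siCPSF6 and 0.31 in siNC, and on the spike-in scale it was -0.50 in siCPSF6 and -0.65 in siNC. In siCPSF6 20 members were higher and 4 lower at 6 h than at 0 h as deposited (49.8% and 27.6% of all genes). In siNC 17 were higher and 9 lower (48.6% and 30.7% of all genes). On the spike-in scale 1 was higher and 14 were lower in siCPSF6 (5.83% and 52.4% of all genes), and 1 was higher and 16 were lower in siNC (10.2% and 57.7%). The 1 that was higher in both was DHCR7.

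At 6 h the members ranged from 16.8% to 126% left in siCPSF6, with a median of 84.9% (70.5% over all genes). In siNC they ranged from 8.78% to 130%, with a median of 77.1% (63.6% over all genes). The least was left of SQLE, HSD17B7 and MVK in siCPSF6, at 16.8%, 18.1% and 21.5%. In siNC these 3 stood at 8.8%, 12.8% and 20.9%, with ABCA1 between them at 17.7%. In siCPSF6 under 50% was left of these 3 and of INSIG2. In siNC under 50% was left of the same members and of ABCA1, MSMO1, HMGCS1, CYP51A1, NSDHL and IDI1. The share of all genes under 50% was not counted, and the all-gene median was also lower in siNC. DHCR7, the enzyme of a last step, stood at 124.7% in siCPSF6 and 130.2% in siNC.

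MSMO1 was left at 78.7% after 3 h and 75.4% after 6 h in siCPSF6, against 61.1% and 28.4% in siNC. The 3 h libraries lay wide apart in siCPSF6, at 70.0% and 87.4%, and stood at 62.7% and 59.4% in siNC. The 6 h libraries were 74.4% and 76.4% in siCPSF6 and 26.1% and 30.7% in siNC. ABCA1 was left at 60.7% after 3 h and 52.9% after 6 h in siCPSF6, against 30.4% and 17.7% in siNC. For both genes the 6 h libraries of the 2 arms were far apart. By the group means, most of the ABCA1 gap was already there at 3 h and most of the MSMO1 gap was not. HMGCS1 was left at 57.8% and 65.3% in the siCPSF6 libraries and 32.8% and 41.8% in the siNC libraries at 6 h. SQLE was left at 17.5% and 16.1% in siCPSF6 and 7.6% and 9.9% in siNC. FDPS ran the other way, with 86.9% and 93.2% in siCPSF6 and 118.6% and 125.1% in siNC.

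The difference between the arms in the change from 0 h to 6 h was tested as an interaction. As deposited, 7 members had a higher change in siCPSF6 and 2 a lower one (12.0% and 12.4% of all genes), and 21 did not pass. ABCA1 changed by -0.06 in siCPSF6 and -1.54 in siNC, a difference of 1.48 (SE 0.12, adjusted p = 1.7e-06). MSMO1 changed by 0.45 in siCPSF6 and -0.86 in siNC (difference 1.31, SE 0.10, adjusted p = 6.4e-07). SQLE changed by -1.71 in siCPSF6 and -2.56 in siNC (difference 0.84, SE 0.12, adjusted p = 0.00014), and HMGCS1 by 0.16 in siCPSF6 and -0.47 in siNC (difference 0.63, SE 0.09, adjusted p = 0.0002). On the spike-in scale the changes of these 4, in the same order, in siCPSF6 were all negative (-0.92, -0.41, -2.57 and -0.70), and those in siNC were -2.50, -1.82, -3.52 and -1.43. Their differences there were 1.58, 1.41, 0.94 and 0.73, and all 4 passed; over all genes 6.89% were higher and 1.84% lower there, with a median of 0.08, against -0.03 as deposited.

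NSDHL (0.52), NPC1 (0.59) and CYP51A1 (0.44) also had a higher change in siCPSF6, and FDPS (-0.54) and MVD (-0.30) a lower one. On the spike-in scale NPC1 passed, while NSDHL, CYP51A1, FDPS and MVD did not (adjusted p = 0.091, 0.098, 0.2 and 0.67). The NPC1 call was lost without replicate 2 of siCPSF6 or 1 of siNC at 0 h, or replicate 1 of siCPSF6 or 2 of siNC at 6 h (0.45 to 0.57). The CYP51A1 call was lost without replicate 1 of siCPSF6 or of siNC at 0 h, or of siCPSF6 at 6 h (0.39 to 0.43). That of MVD was lost without 9 of the 12 libraries in turn, all but replicate 2 of siNC at 0 h and both of siCPSF6 at 3 h (-0.33 to -0.24). The 7 higher changes were in 4 of 12 members from squalene to cholesterol, 1 of 8 in the mevalonate arm and 2 of 6 in transport. Over all genes 12.0% were higher. On the spike-in scale these arms had 2, 1 and 2 (6.89% of all genes). With the replicate number as a block 11 members were higher and 4 lower (16.2% and 17.7% of all genes), the additions being NPC1L1, IDI1, LSS and SREBF2 on the higher side and ACAT2 and INSIG2 on the lower. With 3 h in place of 6 h only ABCA1 passed (0.84, adjusted p = 0.0021; 2.26% of all genes were higher and 0.734% lower), and the 3 h value of MSMO1 was 0.20 (adjusted p = 0.32). With the replicate number as a block CYP51A1 (0.43, adjusted p = 0.0078), NSDHL (0.37, adjusted p = 0.024) and FDFT1 (0.23, adjusted p = 0.041) also passed over the first 3 h.

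**Figure D3:**
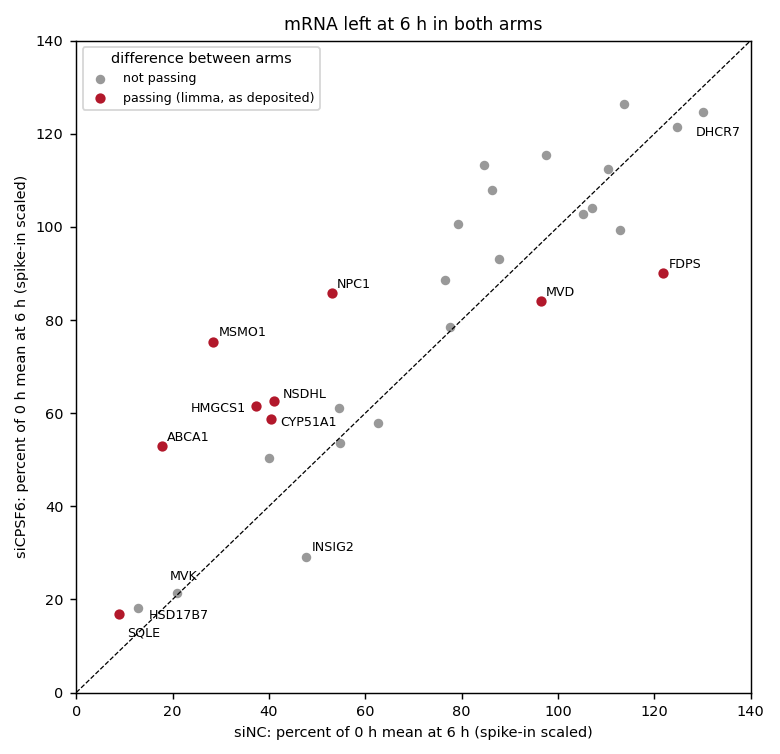
Percent of the 0 h mean left at 6 h (spike-in scaled) in siCPSF6 (vertical axis) against siNC (horizontal axis), 1 point per member; the dashed line marks equal values and red points passed the test of the difference between arms on the deposited scale. ABCA1 (52.9% in siCPSF6, 17.7% in siNC) and MSMO1 (75.4% in siCPSF6, 28.4% in siNC) lie above the line, and FDPS (90.1% in siCPSF6, 121.9% in siNC) below it.

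Apparent transcript length was taken as log2(normalized count + 1) minus log2(TPM + 0.1), centred in each library, since TPM divides by length and the count does not. At 0 h 15 members were longer in siCPSF6 and 3 shorter (29.3% and 6.1% of 11847 genes), with a median of 0.078 against 0.075 over all genes. Of the 15 longer calls 13 lay between 0.065 and 0.121, near the all-gene median, and only SREBF1 (0.27) and SOAT2 (0.24) lay away from it. INSIG2 was shorter by the most, with -0.18 and -0.60 in siCPSF6 and 0.44 and 0.25 in siNC (difference -0.74, SE 0.13, adjusted p = 0.0055). Its TPM was 23.8 and 23.0 in siCPSF6 and 19.9 and 16.4 in siNC at 0 h, so its level per length was higher in siCPSF6 while its normalized count was lower, and neither difference passed. STARD4 (-0.28, SE 0.07, adjusted p = 0.023) and SC5D (-0.23, SE 0.04, adjusted p = 0.0072) were also shorter. SC5D had a log2 difference of 0.88 in TPM, against 0.62 in normalized counts. At 3 h 12 members were longer and none shorter (21.5% and 6.2% of all genes), and at 6 h 11 and none (23.7% and 5.96%).

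Other genes of the pathway, outside the 31, were counted in the same fit at 0 h, where 21.8% of all genes were higher and 21.1% lower. Of 15 tested genes listed for SREBP and fatty acid synthesis 6 rose and 3 fell. ELOVL6, a fatty acid elongase, rose by 1.41 (adjusted p = 1.3e-07) and FADS2, a desaturase, by 0.60 (adjusted p = 6.1e-05). Of 10 genes of SREBP processing and enzyme turnover 4 rose and 2 fell, with SPRING1, needed for SREBP cleavage, at -1.03 (adjusted p = 2.4e-06). Of 11 tested LXR target and sterol trafficking genes 3 rose and 3 fell, with OSBPL2, an oxysterol-binding protein, at 0.81 (adjusted p = 1.1e-05) and NR1H3, which encodes an LXR receptor, at -0.83 (adjusted p = 2.8e-05). Of 10 genes of the isoprenoid branches 2 rose and 3 fell, and NUS1 (dolichol synthesis, 0.82) and COQ2 (coenzyme Q synthesis, 0.57) had the smallest p. Scaled to the spike-in RNA, 3 SREBP and fatty acid genes rose and 2 fell at 0 h, and none rose and 2 fell in SREBP processing. On that scale 3 rose and 3 fell among LXR and trafficking genes, and 1 rose and 1 fell in the isoprenoid branches (8.93% and 19.7% of all genes). In the difference between the arms 4 SREBP and fatty acid genes were higher and none lower, as deposited (12.0% and 12.4% of all genes). That test gave 3 higher and 2 lower in SREBP processing, 1 and 1 among LXR and trafficking genes, and none and 3 in the isoprenoid branches. Scaled to the spike-in RNA, the only call in these 4 lists was 1 higher change in SREBP processing (6.89% of all genes higher and 1.84% lower).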

How the data were processed

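RNA from 12 HepG2 libraries was analysed. STAR, RSEM and hg38 are named in the submitters' processing notes; for versions, annotation and use of strand, the sources used here give nothing. Per the labels' protocols, each 5 µg of total RNA received ERCC spike-in. The deposited normalized counts are a score: the authors scaled gene-level counts to an equal upper quartile and rounded them, so tests for raw counts were not run. The authors' deposited TPM table served as an alternative and for apparent length.

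Log2(normalized count + 1) of genes with a mean of at least 20 was fitted with limma 3.58.1 (R 4.3.3; trend and robust settings), with 6 group means, 6 residual degrees of freedom and Benjamini-Hochberg adjustment within each comparison. Spike-in scaling divided by summed ERCC counts, which were 1.13% to 1.43% of a library. In siCPSF6 at 3 h they were 1.43% in replicate 1 and 1.13% in replicate 2. Depth was read from the spacing of attainable values (scaling factors 0.704 to 1.40). The interval behind each value is the replicate spread.

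Members and lists were chosen with earlier results of these data known. Every member is described; values per library are given for the 4 largest rises and falls that passed at 0 h, the 4 smallest p in the difference between arms, and the regulators and members compared with these. Of each list outside the members the genes with the smallest p at 0 h are named, and 1 such gene is not reported here. No replicate pair was a copy: counts within pairs gave chi-square values of 5.96 to 15.7 per degree of freedom. Deviations of same-numbered libraries correlated at 0.108 to 0.236 over 15 pairs of groups. A fit that pairs same-numbered libraries, with the replicate number as a block, was therefore given as an alternative. This pairing comes from the values. The main comparisons did not use it and have no block unless stated. Promoters are RefSeq on GRCh38.p14.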

Additional observations from a re-analysis of the deposited data

Results flagged for a closer look

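The change from 0 h to 6 h differed between siCPSF6 and siNC, by limma's test of the difference itself, in 9 members (log2, siCPSF6 minus siNC, as deposited). The difference was 1.48 for ABCA1, 1.31 for MSMO1, 0.84 for SQLE, 0.63 for HMGCS1, 0.59 for NPC1, 0.52 for NSDHL and 0.44 for CYP51A1. It was -0.54 for FDPS and -0.30 for MVD. Groups had 2 libraries each, so single outlying libraries were not looked for.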

How the results depend on the processing

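Member counts were recomputed under the alternatives. The larger shifts are given here, and smaller ones only in part. Apparent length was recomputed only with other pseudocounts, a mean of at least 100, no trend and robust settings, the block and left-out libraries. Single values over time within an arm were recomputed for 8 members. At 0 h 10 members were higher with no filter (2657 of all 22148 genes) and 11 with the TPM table (2132 of all 12188 genes). IDI1, GGPS1 and ABCA1 lost their 0 h calls in both (adjusted p = 0.2, 0.07 and 0.29 with TPM), and SOAT1 with no filter. TM7SF2, lower at 0 h, lost its call in both (adjusted p = 0.07 and 0.19), and SOAT2 gained a lower call with TPM. Without trend and robust settings IDI1, ABCA1 and TM7SF2 lost theirs. With spike-in scaling, 2 members were higher at 0 h and 4 lower at 6 h; at 6 h against 0 h 1 was higher and 14 lower in siCPSF6, and 1 higher and 16 lower in siNC; and no member (0) had a lower change in siCPSF6. With the TPM table, 3 were lower at 6 h (2220 of all 12188 genes). At 6 h against 0 h 6 were higher and 14 lower in siCPSF6 (1743 and 5907 of all 12188 genes). In siNC 5 were higher and 18 lower (1977 and 6486 of all 12188 genes). Median-ratio scaling gave 9 lower at 6 h against 0 h in siCPSF6 (4574 of all 12939 genes). In the difference between arms, 1 was lower with no filter (1328 of all 22148 genes) or without trend and robust settings (1193 of all 12939 genes). Without those settings 5 were higher (1285 of all 12939 genes), and NPC1 and CYP51A1 lost their calls (adjusted p = 0.061 and 0.069). With 3 h in place of 6 h (chosen after seeing the data) 1 was higher and 0 lower.

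With the replicate number as a block (pairing as above) the difference between arms gave 11 higher and 4 lower; members that gained a call in level are named above or were INSIG2 and MVD at 3 h, LBR and STARD4 at 6 h, and NSDHL over time in siCPSF6, and no call in level was lost. In apparent length IDI1 at 0 h, SOAT2 at 3 h and SOAT1 at 6 h gained a call, and NPC1L1 at 0 h and EBP at 3 h lost theirs (adjusted p = 0.055 and 0.053).

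In siCPSF6 the change at 6 h against 0 h reversed for MSMO1 (spike-in -0.41, TPM -0.30), HMGCS1 (median-ratio -0.12, spike-in -0.70, TPM -0.68) and CYP51A1 (spike-in -0.77, TPM -0.69); the all-gene median there was 0.35 as deposited, 0.07, -0.50 and -0.37 with median-ratio, spike-in and TPM values. Among all members, spike-in scaling also turned passing rises over time into passing falls for FDFT1 (0.15 to -0.71) and STARD4 (0.51 to -0.35) in siCPSF6, and for ACAT2 (0.28 to -0.68), LBR (0.56 to -0.40) and STARD4 (0.60 to -0.36) in siNC; 6 more members in each arm changed sign without passing there. In 49 other cases of the single values the sign changed between values that passed in neither fit.

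Leaving out 1 library at a time, the members higher and lower numbered 9 to 14 and 3 to 6 at 0 h, 12 to 14 and 5 to 7 at 3 h, 13 to 15 and 6 to 8 at 6 h, 18 to 21 and 4 in siCPSF6 over time, 17 and 9 in siNC over time, 5 to 9 and 1 to 2 in the difference between arms, and 10 to 15 longer and 2 to 3 shorter. The 9 came without replicate 2 of siCPSF6 or of siNC at 0 h, and the 3 without replicate 1 of siCPSF6 or replicate 2 of siNC at 0 h. A lone library is then assumed to vary like the other groups. How the calls over all genes shifted in these fits is not given here, so the members cannot be set against them. Of the 9 differences between arms, MVD lost the call without 9 of the libraries, NPC1 without 4 and CYP51A1 without 3. HMGCS1 in siCPSF6 over time (0.16) lost the call without either siCPSF6 library at 0 h or replicate 2 at 6 h (0.11 to 0.17). Pseudocounts of 0.1 and 10 and a mean of at least 100 changed the call of none of the 136 single values. The lowest member count in a library was 119 (PMVK), and 2 libraries per group limit which differences can pass.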
